A study of Mus musculus with 11 samples.

Results

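The 8 genes described here encode Wnt ligands of the developing tooth: Wnt3, Wnt4, Wnt5a, Wnt6, Wnt7b, Wnt10a, Wnt10b and Wnt11. They were chosen by name as epithelial and mesenchymal Wnt ligands, not by any measured value. All 8 are among the 16755 genes listed by symbol in the deposited table of E14.5 maxillary molar tooth germs. They are 8 of the 16 Wnt ligands listed there, out of 19 Wnt gene symbols looked up. Wnt1, Wnt8a and Wnt8b have no row in that table and were not analysed here. No ligand of the 8 was called different between any pair of genotypes. The levels of Wnt6, Wnt10a and Wnt10b rose and fell together from library to library, most of all among the compound mutant libraries.

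Wnt ligands are secreted, lipid-modified glycoproteins. They are acylated by Porcn, carried to the cell surface by Wls and bound by Frizzled receptors with Lrp5 or Lrp6, which stabilises beta-catenin, or with Ror and Ryk receptors in pathways that do not need beta-catenin. In the tooth germ, canonical ligands such as Wnt10a and Wnt10b mark the epithelium and its signalling centres, and Wnt5a is best known from the mesenchyme.

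Bulk RNA was compared between wild type (Cilk1+/+), Cilk1-/- and Cilk1-/-;PCS1-MRCS1△/△ embryos. The last of these is the compound mutant. Cilk1-/- mice lack exon 6 of Cilk1, a kinase gene of the primary cilium, after a cross of Cilk1 fl/fl with EIIa-Cre mice, so the deletion is in every tissue. The compound mutant carries the same deletion and, on both alleles, a 70 kb deletion spanning PCS1 to MRCS1. The libraries numbered 4 for wild type, 4 for Cilk1-/- and 3 for the compound mutant, all on the C57BL/6 background, with both sexes mixed and n = 6 pooled in each library. The sources do not say whether germs or embryos are meant by that 6. By their record numbers the libraries fall into 2 runs, called label sets here. Set 1 holds wild-type and Cilk1-/- libraries 1 to 3, and set 2 holds library 4 of each and all 3 compound mutant libraries. No label calls a set a batch. A difference between the sets and one between the compound mutant and the other genotypes can be told apart only through the libraries numbered 4. In bulk tissue, fewer cells of a type and less RNA per cell cannot be told apart.

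The values were taken here as log2 values with 1 added before the logarithm. The level is one that the study's methods describe as FPKM, scaled by gene length and library size. That form is an assumption. Values below 0, which it cannot give without a further adjustment, occur for 257 genes in at least 1 library. The sums and shares below rest on it. Counts were not used here and the depth is unknown, so precision rests on the spread between libraries. Adding 1 makes the change of a low gene look smaller than it was. Ick, the symbol under which Cilk1 is listed, was at 3.45 to 3.60 in wild type, 2.72 to 2.86 in Cilk1-/- and 2.60 to 2.67 in the compound mutant. Wild-type and Cilk1-/- libraries of the same number were not independent, since their deviations from the genotype means had correlations of -0.741, -0.892, -0.848 and -0.792 over all genes for numbers 1 to 4. Marker genes of several cell types differed between libraries. The summed level of 12 epithelial markers, led by Krt5 and Krt17, was 784 in compound mutant library 1 and 1328 to 1708 in wild type. Library 2 was low as well. The mean log2 value of these markers minus that of wild type was -0.52, -0.25 and 0.13 in compound mutant libraries 1 to 3. The wild-type libraries were at -0.08 to 0.12 and those of Cilk1-/- at -0.09 to 0.18. That of 6 cartilage markers, led by Col2a1 and Sox9, was 625, 44.0 and 49.5 in compound mutant libraries 1 to 3, above the 23.7 to 30.0 of wild type and the 26.3 to 37.9 of Cilk1-/- in every library. Neuronal markers, led by Gap43 and Tubb3, summed to 41.3 to 50.5 in wild type, and both mutants were above that in every library, with 52.4 to 63.9 in Cilk1-/- and 59.9 to 268 in the compound mutant. Skeletal muscle markers, led by Actc1 and Mylpf, were lower in every compound mutant library (9.80 to 12.2) than in Cilk1-/- (24.4 to 65.0). Compound mutant library 3 had a sum of 193 for 10 enamel knot markers, led by Bmp4 and Shh, against 82.5 to 111 in wild type, and a sum of 759 for 7 erythroid markers, led by Hba-a1 and Hbb-bt, against 2190 to 2799. The part of these cell types in the values below was not tested. None of the epithelial, mesenchymal and enamel knot markers was listed at 0 in any library, so the defining markers of the labelled tissue were present throughout.

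Wnt5a was the most abundant Wnt ligand of the wild-type molar germ and Wnt3 the least abundant of the 8. The mean wild-type log2 value of Wnt5a was 5.17 ± 0.16 (SD, n = 4), higher than the values of 88.2% of all listed genes. Wnt6 followed at 4.01 ± 0.16, Wnt4 at 3.62 ± 0.13 and Wnt10b at 3.48 ± 0.15. These 4 ligands were the upper part of the order, and each had a wild-type mean above the values of 58.8% of genes or more. Wnt10a was at 2.87 ± 0.34, Wnt7b at 2.55 ± 0.12 and Wnt11 at 2.54 ± 0.14. Wnt3 was at 0.90 ± 0.09, with 21.3% of genes below it. The wild-type ranges of Wnt5a and Wnt6, of Wnt6 and Wnt4, and of Wnt11 and Wnt3 did not overlap. Those of Wnt4 and Wnt10b, of Wnt10b and Wnt10a, and of Wnt10a and Wnt7b overlapped, although the first of each pair was higher in 4 of 4 libraries. Wnt7b and Wnt11 did not differ beyond their spread, with Wnt7b higher in 2 of 4 libraries. In all 11 libraries Wnt5a was first and Wnt3 last.

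**Figure D1:**
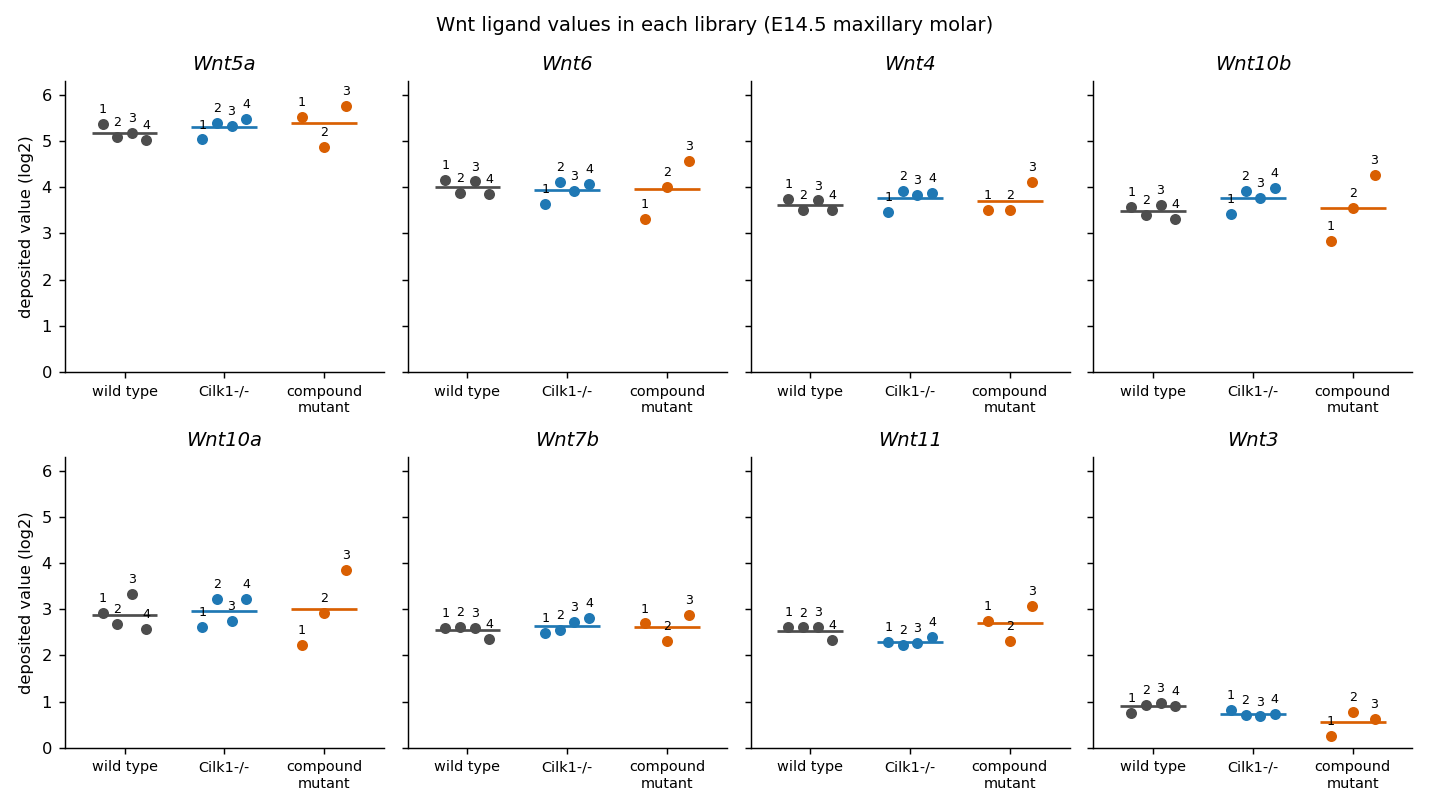
The deposited log2 value of each of the 8 Wnt ligands is plotted for every library of wild type (4), Cilk1-/- (4) and compound mutant (3), with the replicate number above each point and the group mean as a line. The genotypes overlap for every ligand, and compound mutant libraries 1 and 3 spread apart for Wnt6, Wnt10a and Wnt10b.

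Wnt6 and Wnt10a lie side by side on chromosome 1, and Wnt10b is the closest relative of Wnt10a. In GRCm38 with the GENCODE vM21 annotation, Wnt6 occupies chr1:74771892-74785322 and Wnt10a chr1:74791516-74804179, both on the plus strand with 6193 bp between them. Wnt10b is at chr15:98770712-98778150 on the minus strand. Wnt6 is known from oral and dental epithelium. Its log2 values in wild type were 4.16, 3.88, 4.13 and 3.85 for libraries 1 to 4, in Cilk1-/- 3.64, 4.12, 3.92 and 4.07, and in the compound mutant 3.32, 4.0 and 4.56 for libraries 1 to 3. Both the lowest and the highest Wnt6 values of the series were compound mutant libraries, and all 3 genotypes overlapped. Against wild type the log2 fold change was -0.07 in Cilk1-/- (95% interval -0.55 to 0.42, adjusted p = 0.907), and the compound mutant had -0.04 (-0.57 to 0.48, adjusted p = 0.928).

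Wnt10a, whose human counterpart is often mutated in isolated tooth agenesis, spread most among the 8. It had log2 values of 2.91, 2.67, 3.34 and 2.58 in wild type, of 2.62, 3.22, 2.75 and 3.22 in Cilk1-/- and of 2.23, 2.91 and 3.85 in the compound mutant. Again the compound mutant libraries took both ends of the range. Cilk1-/- differed from wild type by a log2 fold change of 0.08 (-0.60 to 0.76, adjusted p = 0.926), and the compound mutant by 0.12 (-0.61 to 0.86, adjusted p = 0.843), so a change of 1.5-fold in either direction lay inside both intervals.

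Wnt10b, a canonical ligand of the dental placode, had log2 values of 3.58, 3.40, 3.62 and 3.31 in wild type, of 3.43, 3.93, 3.76 and 3.99 in Cilk1-/- and of 2.84, 3.55 and 4.26 in the compound mutant. Cilk1-/- libraries 2 to 4 were above every wild-type library, and library 1 lay within the wild-type range. The log2 fold change in Cilk1-/- was 0.30 (-0.25 to 0.84, adjusted p = 0.537), the largest rise of the 8 in that comparison, and it did not pass the test. The compound mutant had 0.07 (-0.52 to 0.66, adjusted p = 0.888).

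Wnt4, at chr4:137277489-137299726 on the plus strand, is expressed in oral and dental epithelium. Its log2 values were 3.74, 3.51, 3.72 and 3.51 in wild type, 3.47, 3.92, 3.84 and 3.87 in Cilk1-/- and 3.50, 3.51 and 4.12 in the compound mutant. As with Wnt10b, Cilk1-/- libraries 2 to 4 were above every wild-type library and library 1 was below them all. Its log2 fold change in Cilk1-/- was 0.16 (-0.16 to 0.48, adjusted p = 0.589), against 0.09 for the compound mutant (adjusted p = 0.751).

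Over the 11 libraries Wnt6 and Wnt10b had a Pearson correlation of 0.889, and of 0.590 without compound mutant libraries 1 and 3. The bases upstream of the transcription start are shown for Wnt6, Wnt10b and Wnt11, which correlated with Wnt6 at 0.314 and with Wnt10b at 0.107. Promoters from RefSeq on GRCm38.p6 were at hand for 5 of the 8 ligands, and for these 3 a RefSeq start is also the GENCODE start. RefSeq has a second start for Wnt11, further downstream, which is described but not printed. Each run holds the 250 bases before the start, 5′ to 3′ on the gene's strand. Capitals mark matches on either strand to a GC box (GGGCGG), to the core that TCF and LEF factors bind (CTTTGA) or to a GLI motif (GACCACCCA).
Wnt6, chr1:74771642-74771891, plus strand: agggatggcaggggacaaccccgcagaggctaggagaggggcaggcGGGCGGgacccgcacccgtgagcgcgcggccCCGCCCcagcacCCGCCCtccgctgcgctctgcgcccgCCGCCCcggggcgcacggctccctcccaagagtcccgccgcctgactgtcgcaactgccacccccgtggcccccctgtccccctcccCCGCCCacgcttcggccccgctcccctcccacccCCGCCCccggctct
Wnt10b, chr15:98778151-98778400, minus strand: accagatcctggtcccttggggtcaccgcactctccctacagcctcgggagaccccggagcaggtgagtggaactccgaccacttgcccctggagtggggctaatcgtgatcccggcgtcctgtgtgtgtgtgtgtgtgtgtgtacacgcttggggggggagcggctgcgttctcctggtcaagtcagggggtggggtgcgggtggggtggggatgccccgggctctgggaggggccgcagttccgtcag
Wnt11, chr7:98834862-98835111, plus strand: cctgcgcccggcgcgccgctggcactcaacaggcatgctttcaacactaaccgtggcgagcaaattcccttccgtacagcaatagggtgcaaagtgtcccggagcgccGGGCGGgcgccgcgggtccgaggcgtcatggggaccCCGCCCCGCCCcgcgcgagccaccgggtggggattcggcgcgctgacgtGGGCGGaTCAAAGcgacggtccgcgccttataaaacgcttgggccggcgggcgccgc

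The Wnt6 window is 79.6% G and C and holds 6 GC boxes, that of Wnt11 is 70.8% G and C with 4 GC boxes and 1 TCF/LEF core, and that of Wnt10b is 66.8% G and C with no match. Overlapping matches were counted separately. Among 32817 promoter windows of the same length, 32.7% held a GC box, 13.8% a TCF/LEF core and 0.225% the GLI motif. None of the 3 windows held the GLI motif. The window before the second Wnt11 start, chr7:98838595-98838844, is 56.8% G and C and holds no match to any of these motifs. The matches are a description of these letters and were not related to the values.

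Wnt5a signals mainly without beta-catenin and lies at chr14:28504750-28527448 on the plus strand. Its log2 values were 5.38, 5.08, 5.19 and 5.03 in wild type, 5.04, 5.40, 5.33 and 5.48 in Cilk1-/- and 5.52, 4.87 and 5.76 in the compound mutant. The compound mutant held both the highest and the lowest library. Compared with wild type, the log2 fold change was 0.14 in Cilk1-/- (-0.24 to 0.52, adjusted p = 0.697), and 0.21 for the compound mutant (-0.20 to 0.62, adjusted p = 0.485). The compound mutant difference was 0.47 without library 2 (adjusted p = 0.0380, under 1.5-fold) and 0.02 without library 3 (adjusted p = 0.946).

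Wnt7b, at chr15:85535437-85582473 on the minus strand, is known from oral epithelium outside the tooth. Its log2 values were 2.60, 2.62, 2.60 and 2.36 in wild type, 2.49, 2.55, 2.72 and 2.81 in Cilk1-/- and 2.69, 2.30 and 2.88 in the compound mutant. All 3 genotypes overlapped. Neither mutant differed past the test, with log2 fold changes of 0.10 in Cilk1-/- (-0.17 to 0.36, adjusted p = 0.710) and of 0.08 for the compound mutant (adjusted p = 0.738). The antisense gene AU022754 overlaps Wnt7b and was listed between 0.28 and 0.83 in the 11 libraries. Unlisted antisense genes overlap Wnt5a, Wnt6 and Wnt11. Whether counting used the strand is not given in the sources used here, so reads of these partners cannot be told apart.

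Wnt11, a ligand of beta-catenin independent signalling at chr7:98835112-98855195 on the plus strand, had log2 values of 2.61, 2.60, 2.61 and 2.33 in wild type, 2.30, 2.23, 2.28 and 2.40 in Cilk1-/- and 2.74, 2.32 and 3.07 in the compound mutant. Wild-type libraries 1 to 3 were above every Cilk1-/- library, and wild-type library 4 was inside the Cilk1-/- range. The log2 fold change was -0.24 in Cilk1-/- against wild type (-0.54 to 0.06, adjusted p = 0.353) and 0.17 in the compound mutant against wild type (-0.15 to 0.50, adjusted p = 0.470). Between the mutants it was 0.41 (0.09 to 0.74), higher in the compound mutant, with an unadjusted p of 0.0177 in limma's test and an adjusted p of 0.133. Compound mutant libraries 1 and 3 were above every Cilk1-/- library, and library 2 was within their range. Without compound mutant library 2, the difference was 0.61 with an adjusted p of 0.0136, which is a call. With library 2 as the single compound mutant library it was 0.02.

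Wnt3, a canonical ligand at chr11:103774150-103817957 on the plus strand, had the lowest level. Its log2 values were 0.76, 0.93, 0.97 and 0.91 in wild type, 0.82, 0.71, 0.68 and 0.73 in Cilk1-/- and 0.25, 0.78 and 0.63 in the compound mutant. Compound mutant library 1 was the lowest of the 11 by a wide margin, and library 2 lay within the wild-type range. The log2 fold change was -0.16 in Cilk1-/- (-0.38 to 0.06, adjusted p = 0.400). For the compound mutant it was -0.34 (-0.58 to -0.10), with an unadjusted p of 0.00998 in limma's test and an adjusted p of 0.0845, under the 1.5-fold threshold. It was -0.19 without library 1, and -0.84 where 0.1 was added before the logarithm in place of 1 (adjusted p = 0.103). Mesenchymal markers were also low in library 1, where 12 of them, led by Col1a1 and Col3a1, summed to 1769 against 2137 to 2402 in wild type. Epithelial markers were about as low there. Their mean log2 value minus that of wild type was -0.52, against -0.53 for the mesenchymal markers. The mesenchymal markers were at -0.02 in compound mutant library 2 and at -0.34 in library 3, against -0.06 to 0.06 in wild type. Wnt3 correlated with the mesenchymal mean at 0.798 over the 11 libraries, and at -0.232 without compound mutant libraries 1 and 3. The part of either tissue in the Wnt3 value was not tested.

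In all, 0 of the 8 ligands were called in Cilk1-/- against wild type, where 0.370% of all genes were called at an adjusted p under 0.05 and at least 1.5-fold. In the compound mutant against wild type 0 of 8 were called, beside 1.25% of all genes, and in the compound mutant against Cilk1-/- 0 of 8, beside 0.543%. At an unadjusted p under 0.05 in limma's test the counts were 0, 1 and 1 of 8, the single ligands being Wnt3 and Wnt11, beside 20.7%, 26.7% and 23.2% of all genes. The Cilk1-/- test took its spread from all 11 libraries, the more widely spread compound mutant ones included. With only wild type and Cilk1-/- compared, the standard error of Wnt10b was 0.120 in place of 0.246. The unadjusted p in limma's test was then 0.0171 for Wnt3, 0.0342 for Wnt10b, 0.00886 for Wnt11 and 0.152 or above for the others. The adjusted p of Wnt3, Wnt10b and Wnt11 was 0.0797, 0.122 and 0.0540, and no ligand was called. That fit treats same-numbered libraries as independent. Their deviations ran opposite ways, so its standard errors can be too small. With the replicate number as a block, over all 11 libraries, the unadjusted p of these 3 in limma's test was 0.154, 0.209 and 0.112. The standard error of Wnt10b was then 0.218. For none of the 8 did the libraries of 2 genotypes separate without overlap, which 20.9%, 18.0% and 17.0% of all genes did in the 3 comparisons. Against wild type, the 8 had a median log2 fold change of 0.09 in Cilk1-/- and 0.08 for the compound mutant, beside 0.00 over all genes in both. The 95% interval stayed within 1.5-fold in either direction for 6 of the 8 ligands in Cilk1-/- against wild type, the exceptions being Wnt10a and Wnt10b. It did so for 5 of 8 in the compound mutant against wild type, where Wnt5a was also wider, and for 5 of 8 between the mutants, where Wnt10a, Wnt10b and Wnt11 were wider. With the compound mutant libraries placed in 1 block with pair 4, whose labels they share, the counts were 3, 1 and 2.

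**Figure D2:**
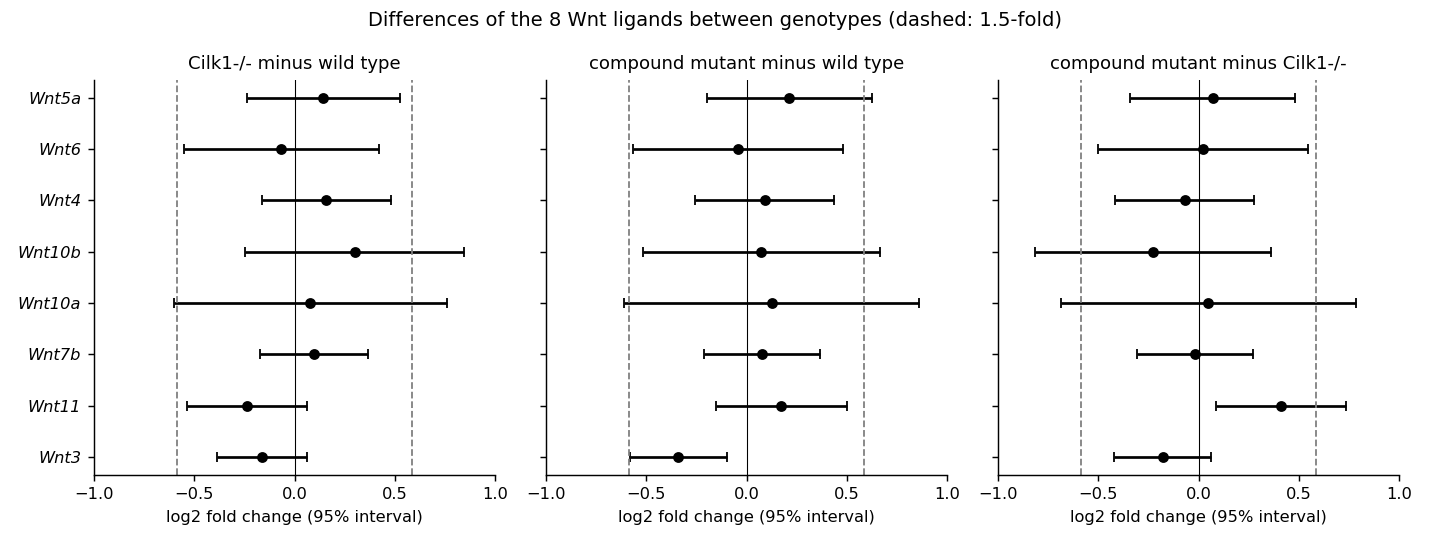
The log2 fold change of each Wnt ligand, with its 95% interval from limma, is plotted for Cilk1-/- minus wild type, compound mutant minus wild type and compound mutant minus Cilk1-/-, with dashed lines at 1.5-fold. The interval excludes 0 for Wnt3 in the compound mutant against wild type and for Wnt11 between the mutants, and neither passed the test after adjustment.

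Expressed as a part of the ligand pool, the 8 genes made up most of the Wnt ligand level, and that share was alike in the 3 genotypes. Their part of the summed level of the 16 listed ligands, turned back from the log2 scale, was 82.1% ± 1.03 (SD, n = 4) in wild type, 82.3% ± 0.992 (n = 4) in Cilk1-/- and 83.0% ± 2.45 (n = 3) in the compound mutant. Wnt5a alone held 32.5% ± 1.23, 33.5% ± 0.412 and 35.0% ± 7.66 in that order. The summed level of the 8 ligands was 78.4 to 98.2 in wild type and 77.6 to 107 in Cilk1-/-. The compound mutant sums were 85.3, 79.5 and 138, so library 3 was above all others.

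Within that pool, 3 of the 8 shares separated Cilk1-/- from wild type without overlap, beside 7.25% of all genes set against the same sum. This comparison was chosen after the values were seen, and the shares add up to a whole, so they are not independent of each other. Nearly all genes behind the 7.25%, and behind the percentages of all genes given below, are not part of that sum. Dividing them by it is unlike dividing its own parts, so no excess can be read from these counts. Before the division, 0 of the 8 ligands and 20.9% of all genes separated. Wnt6 held 14.1%, 13.4%, 14.4% and 14.0% of the ligand level in wild-type libraries 1 to 4 and 12.0%, 13.1%, 12.2% and 12.3% in Cilk1-/-. Every Cilk1-/- library was below every wild-type library. Wnt11 held 4.27%, 4.97%, 4.46% and 4.18% in wild type and 4.09%, 2.96%, 3.30% and 3.32% in Cilk1-/-, again without overlap. Wnt10b moved the other way, with 9.12%, 9.36%, 9.90% and 9.27% in wild type and 10.2%, 11.4%, 10.8% and 11.5% in Cilk1-/-. No share of the 8 (0 of 8) separated the compound mutant from wild type, beside 7.65% of all genes. There Wnt6 held 8.74%, 15.2% and 14.0%, Wnt10b 6.00%, 10.9% and 11.3% and Wnt11 5.53%, 4.05% and 4.59%, so the Wnt6 and Wnt10b shares were low in library 1 alone. Between the mutants 1 of 8 shares separated, that of Wnt4, beside 6.49% of all genes, with 10.04% to 10.5% in the compound mutant and 10.6% to 11.4% in Cilk1-/-.

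**Figure D3:**
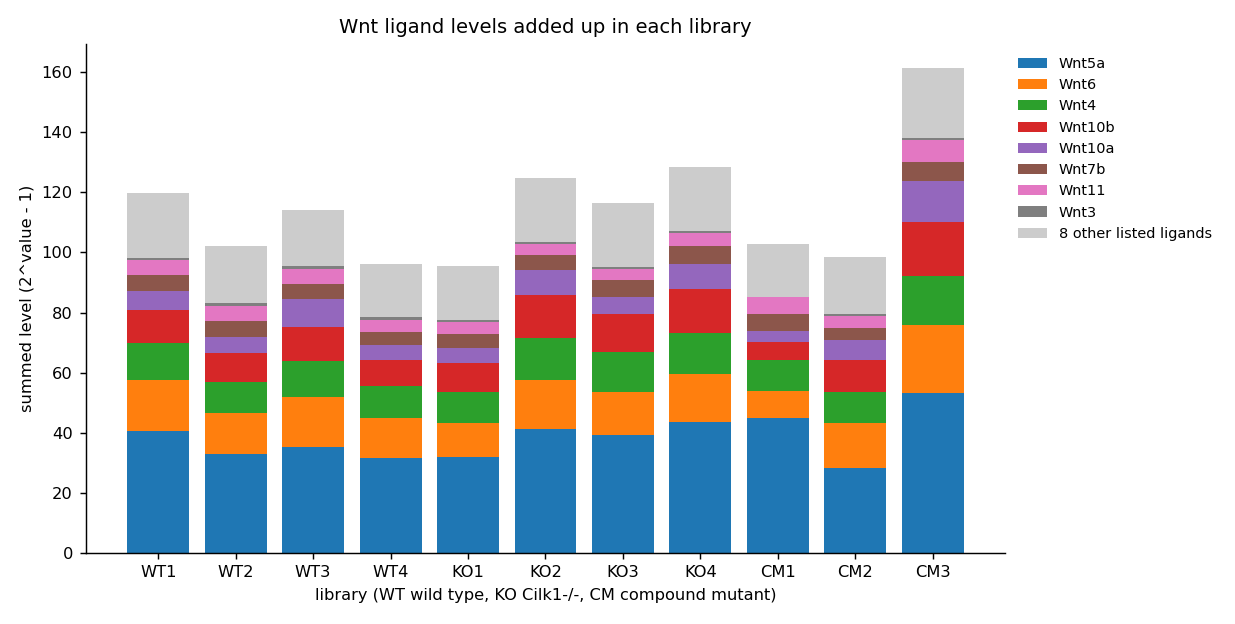
Stacked bars give the level of each of the 8 Wnt ligands and of the other 8 listed ligands together, turned back from the log2 scale (2 to the power of the value, minus 1), for each library. Wnt5a is the largest block in all 11 libraries, and the 8 ligands of compound mutant library 3 add up to 138, the highest sum.

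Wnt4, Wnt6, Wnt10a and Wnt10b varied together over the 11 libraries. Wnt6 and Wnt10a had a Pearson correlation of 0.928, Wnt10a and Wnt10b of 0.901, Wnt6 and Wnt10b of 0.889 and Wnt4 and Wnt10b of 0.879 over n = 11 libraries. These libraries share their dissection and their normalization, and pairs of wild-type and Cilk1-/- libraries share a number, so the correlations are a description. Without compound mutant libraries 1 and 3, the correlations were 0.803, 0.743, 0.590 and 0.919. The Wnt6 and Wnt10b relation therefore rested most on those 2 libraries. Wnt5a and Wnt7b correlated at 0.876, and at 0.821 without the 2 libraries. Wnt4 also followed Wnt5a, at 0.774, and at 0.918 without the 2 libraries, so these 4 ligands were not a group apart. The mean of the enamel knot markers followed Wnt10a at 0.906, and at 0.882 without the 2 libraries, and the mean of the epithelial markers followed Wnt10b at 0.8286, and at 0.691 without them. The part of epithelial and enamel knot tissue in the ligand values was not tested.

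**Figure D4:**
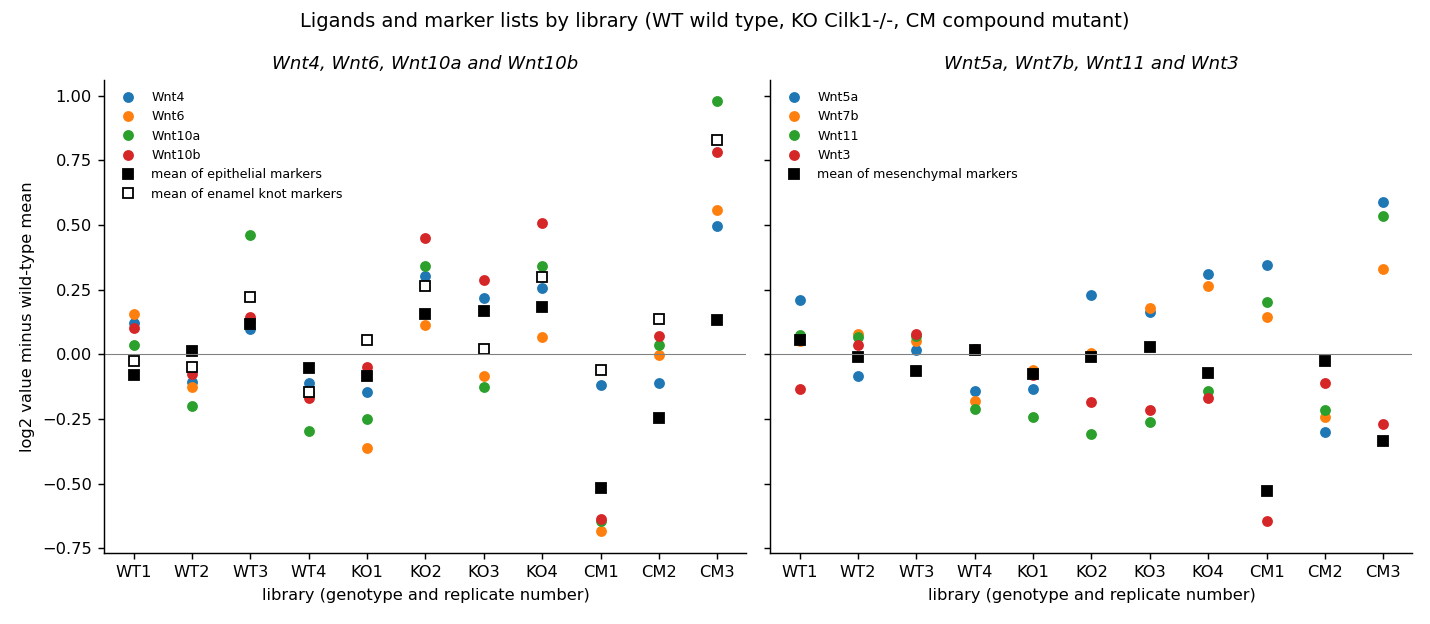
Each point is the log2 value of a ligand, or the mean log2 value of a marker list, minus its wild-type mean, for the 11 libraries. In the left panel Wnt6, Wnt10a and Wnt10b are low together with the epithelial markers in compound mutant library 1 and high together with the enamel knot markers in library 3. In the right panel Wnt3 is lowest in compound mutant library 1, where the mesenchymal markers are lowest too, as are the epithelial markers of the left panel.

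The genes with the most similar profile over the 11 libraries were searched among 13028 genes with a mean of at least 1. The profile of Wnt10b was closest to that of another ligand, Wnt3a (Pearson correlation 0.977), and then to Apcdd1 (0.966), a membrane inhibitor of Wnt signalling that is itself a Wnt target. For Wnt6 the closest were Fndc4 (0.976) and Cdh3 (0.963), which encodes P-cadherin of epithelia, and for Wnt10a Sbsn (0.982), a gene of stratified epithelium, and Susd4 (0.976). Wnt4 was closest to Ccdc109b (0.978) and Col7a1 (0.966), the anchoring collagen of epithelial basement membranes. Wnt5a was closest to Cds1 and Pqlc2 (both 0.967), Wnt7b to Slc7a8 (0.955) and Arhgef3 (0.940), Wnt11 to Isoc2b (0.951) and Ly75 (0.933), and Wnt3 to Nae1 (0.977) and Mapre1 (0.976). With n = 11 libraries and this many genes, high values arise for every profile.

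Of the other 8 listed ligands, 0 were called in any comparison. Wnt9a, at 2.46 to 2.69 in wild type, and Wnt3a, at 1.98 to 2.43, had the highest wild-type values among them. The log2 fold change of Wnt9a in the compound mutant was -0.32 (adjusted p = 0.115). Wnt2, Wnt7a and Wnt5b were singled out after their values were seen. Wnt2 had the largest difference from wild type of the 16 ligands, with log2 values of 2.36, 2.18, 1.73 and 2.19 in wild type, 1.56, 1.71, 2.05 and 1.49 in Cilk1-/- and 1.26, 1.80 and 0.41 in the compound mutant. The compound mutant log2 fold change was -0.96 (-1.59 to -0.34, adjusted p = 0.0665) and that of Cilk1-/- -0.41 (adjusted p = 0.405), and neither was called. Its share of the ligand level was 3.16% ± 0.769 (SD, n = 4) in wild type, 1.99% ± 0.537 (n = 4) in Cilk1-/- and 1.36% ± 1.16 (n = 3) in the compound mutant, with overlap between all 3. Wnt7a had a log2 fold change of 0.54 in Cilk1-/- (-0.26 to 1.33, adjusted p = 0.433). Its share was 0.226% to 0.846% in wild type and 0.985% to 1.56% in Cilk1-/-, the single share of the other 8 ligands that separated these genotypes. Wnt3a had 1.53 in compound mutant library 1 and 3.42 in library 3, the lowest and the highest of the 11. Wnt5b, the closest relative of Wnt5a, was at 2.10 to 2.30 in wild type, 2.15 to 2.26 in Cilk1-/- and 2.67, 2.53 and 2.44 in the compound mutant, where each library was above all others. Its log2 fold change of 0.33 against wild type had an adjusted p of 0.0228 but was under 1.5-fold, and the adjusted p was 0.150 with the replicate number as a block.

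None of the genes that export or receive the ligands was called. Wls, the Wnt carrier, was at 6.38 to 6.47 in wild type, 6.32 to 6.47 in Cilk1-/- and 6.27 to 6.43 in the compound mutant, and Porcn, the acyltransferase, was at 3.16 to 3.35, 3.15 to 3.36 and 3.06 to 3.47. The ranges of the 3 genotypes overlapped in part for both genes. For Wls, library 1 of each mutant lay below all wild-type libraries and Cilk1-/- library 4 just above them. For Porcn, Cilk1-/- library 1 and compound mutant libraries 1 and 2 lay below all wild-type libraries. Cilk1-/- libraries 2 and 3 and compound mutant library 3 lay above them. Of 10 Frizzled receptors 0 were called in any comparison, and Fzd2 and Fzd1, with the highest wild-type values, changed by -0.16 and -0.13 on the log2 scale in Cilk1-/- (adjusted p = 0.279 and 0.339). The libraries of Cilk1-/- and wild type did not overlap for 4 of the 10, beside 20.9% of all genes, and these 4 were named after their values were seen. Fzd4 (2.06 to 2.28 against 1.84 to 2.01 in wild type, adjusted p = 0.198) and Fzd5 (2.05 to 2.15 against 1.82 to 2.005, adjusted p = 0.517) were higher in Cilk1-/-. Fzd7 (4.76 to 4.95 against 4.96 to 5.10, adjusted p = 0.0688) and Fzd10 (2.80 to 2.91 against 3.12 to 3.21, adjusted p = 0.0730) were lower. Fzd10 was also below wild type in every compound mutant library (2.50 to 2.91), with a log2 fold change of -0.41 that had an adjusted p of 0.0252 but was under 1.5-fold, and the adjusted p was 0.127 with the replicate number as a block. In the compound mutant 2 of the 10 separated from wild type, Fzd10 and Fzd9, beside 18.0% of all genes. Fzd9, also named after its values were seen, had the largest Frizzled difference in the compound mutant, 1.20 (adjusted p = 0.0864), with 3.52, 1.96 and 1.34 in libraries 1 to 3 against 0.97 to 1.23 in wild type. Of 6 co-receptors 0 were called, and Ptk7 and Ryk, the highest, had compound mutant log2 fold changes of 0.14 and -0.08 (adjusted p = 0.339 and 0.293). Lrp5, named after its values were seen, was the 1 co-receptor of 6 whose Cilk1-/- libraries did not overlap wild type, at 4.67 to 4.77 against 4.802 to 4.93 (log2 fold change -0.14, adjusted p = 0.181). Of 10 target genes 0 were called, with a median log2 fold change of 0.16 for Cilk1-/- and of 0.08 for the compound mutant. The highest of these in wild type were Apcdd1, with a log2 fold change of 0.27 in Cilk1-/- (adjusted p = 0.584), and Lef1, a transcription factor of the pathway, with 0.23 (adjusted p = 0.437). Cilk1-/- and wild type did not overlap for 3 of the 10 targets, picked out after their values were seen, beside 20.9% of all genes. Lef1 (4.85 to 4.93 against 4.48 to 4.74 in wild type) and Lgr5 (3.64 to 4.15 against 3.11 to 3.58) were higher in Cilk1-/-. Tcf7 (3.63 to 3.94 against 4.27 to 4.73) was lower. In the compound mutant 1 of 10, Nkd1, separated from wild type and was higher, beside 18.0% of all genes.

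Secreted inhibitors were the single Wnt list with calls. Of 13 inhibitors, 4 were called lower in the compound mutant than in wild type and 0 higher, beside 0.633% of all genes called lower and 0.615% called higher, and the list's median log2 fold change was -0.14. Sostdc1, a secreted inhibitor of Wnt and BMP signalling, had log2 values of 7.36, 7.29, 7.34 and 7.35 in wild type, 6.29, 6.77, 6.67 and 6.66 in Cilk1-/- and 5.46, 6.36 and 6.24 in the compound mutant. It fell by 1.31 on the log2 scale in the compound mutant (adjusted p = 0.00622). In Cilk1-/- its log2 fold change was -0.74 (adjusted p = 0.0545), although every library was below wild type. Frzb, which binds Wnt ligands directly, fell by 0.91 (adjusted p = 0.0406), and Sost, a ligand of Lrp co-receptors, fell by 0.67 (adjusted p = 0.0357) at wild-type values of 0.68 to 1.12. Dkk2, another ligand of Lrp co-receptors, fell by 0.65 against wild type (adjusted p = 0.0244) and by 0.89 against Cilk1-/- (adjusted p = 0.0125). It was the single inhibitor called there, of 13, beside 0.388% of all genes called lower. That call was lost with the replicate number as a block (adjusted p = 0.138), with pair 4 and the compound mutant as 1 block (0.809), with a term for the label set (0.176) and with only the 2 genotypes compared (0.0990). Cilk1-/- and wild type did not overlap for 4 of the 13 inhibitors, all lower in Cilk1-/-, beside 20.9% of all genes in either direction. Besides Sostdc1 these were Dkk1 (3.06 to 3.41 against 3.51 to 4.32 in wild type), Frzb (5.97 to 6.31 against 6.46 to 6.83) and Sost (0.12 to 0.56 against 0.68 to 1.12). Dkk1 was named after its values were seen, and its compound mutant libraries (3.55 to 4.26) lay within the wild-type range. Sfrp2, with the highest wild-type value of the list, changed by -0.27 in the compound mutant (adjusted p = 0.673).

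The inhibitor calls against wild type also depended on the fit. With the replicate number as a block 1 of the 13 was called lower, beside 0.113% of all genes, Sostdc1 at -1.30 (adjusted p = 0.0341). In 3 other fits 0 of the 13 were called. The adjusted p of Sostdc1 was 0.435 with pair 4 and the compound mutant as 1 block, 0.0882 with a term for the label set and 0.0576 with only the 2 genotypes compared, at log2 fold changes of -1.35, -1.35 and -1.31. Without compound mutant library 1 the count was 2, without library 3 it was 1, and without wild-type library 1, 2, 3 or 4 it was 2, 1, 2 and 1. Between the mutants it was 5 without compound mutant library 2. Every compound mutant library, where the 4 called inhibitors were low, also had the higher cartilage and neuronal marker sums given above. The part of those cells in the inhibitor values was not tested.

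**Figure D5:**
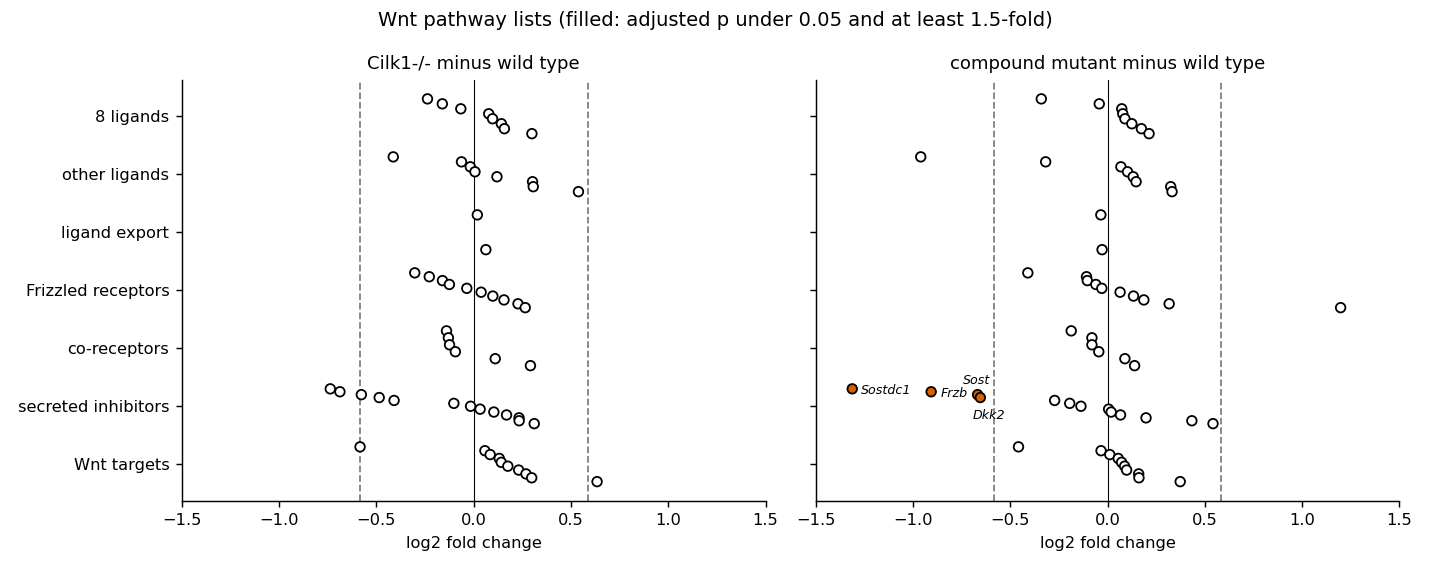
Each point is the log2 fold change of a gene of the Wnt lists, for Cilk1-/- minus wild type and compound mutant minus wild type, with dashed lines at 1.5-fold and filled points for genes called by limma. The 4 filled points are the inhibitors Sostdc1, Frzb, Sost and Dkk2, and none of the 8 ligands passes a dashed line.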

How the data were processed

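Poly-A RNA of 11 libraries was sequenced by the authors. Per the labels, reads were mapped to mm10 and the submitters' processing notes name HISAT2 2.0.5 and featureCounts 1.5.0-p3. The deposited values were taken as log2 values of a level with 1 added, which the authors' methods describe as FPKM from counts and gene lengths. The table itself states neither the unit nor any further adjustment, and 257 genes have a value below 0 in at least 1 library. Counts were not used here, so the depth and its precision are unknown.

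The 3 genotypes were compared with limma 3.58.1 in R 4.3.3 (lmFit and eBayes with trend and robust), in one fit of 11 libraries and 16755 genes without covariates or filter. P-values were adjusted by the Benjamini-Hochberg method over all genes. Genes were called at an adjusted p under 0.05 and at least 1.5-fold. The fit was also run on simulated independent libraries with 1 spread per gene. That setting lacks the opposite deviations of same-numbered libraries, so it does not test how the fit behaves on these data. Levels turned back from the log2 scale, with values below 0 set to 0, gave the sums and shares. Alternatives were a replicate block, a term for the label set of each library, only the 2 genotypes compared, other thresholds, other scalings, a pseudocount of 0.1, a minimum mean of 1 and leaving out each library. A fit of the first label set alone and a fit with compound mutant library 2 as the single one were chosen after seeing the data.

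The 8 ligands and all lists were chosen with earlier results of these data known. Named are all 8 ligands and, of each Wnt list, every called gene and the 2 with the highest wild-type value. Also named are the 2 markers of highest wild-type value of each marker list whose sums are given, and the 2 genes most correlated with each ligand. Positions came from GENCODE vM21 and promoters from RefSeq (GRCm38.p6). Plots were drawn in Python 3.11.15 with matplotlib 3.10.9.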

Additional observations from a re-analysis of the deposited data

Results flagged for a closer look

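Among 16 groups of 4 libraries (8 ligands in wild type and in Cilk1-/-), 2 held a library far from the other 3, and chance gives about 1 such group in 20. Both were wild-type library 4. Wnt7b was at 2.36 there, against 2.60 to 2.62 in wild-type libraries 1 to 3, so the gap was 0.896 of the group's range. Wnt11 was at 2.33, against 2.60 to 2.61, a gap of 0.967 of the range. Wild-type library 4 belongs to the label set of the compound mutant libraries and Cilk1-/- library 4, and wild-type libraries 1 to 3 to the other set. Without it, the log2 fold change in Cilk1-/- was 0.04 for Wnt7b and -0.31 for Wnt11, and neither was called. The cause was not tested.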

How the results depend on the processing

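No ligand of the 8 was called in Cilk1-/- or in the compound mutant against wild type under any alternative that kept the adjusted p and the 1.5-fold threshold, nor, with all libraries, at an adjusted p alone. Without compound mutant library 2 the adjusted p against wild type was 0.0157 for Wnt3, 0.0380 for Wnt5a and 0.0435 for Wnt11, each under 1.5-fold. At an unadjusted p with no fold threshold the count was 1 in the compound mutant against wild type (Wnt3) and 1 between the mutants (Wnt11). Between the mutants 1 ligand, Wnt11, was also called with centring on the epithelial markers (0.73, adjusted p = 0.00978) and without compound mutant library 2, so the range over left-out libraries was 0 to 1. Centring on these markers shifted the median of all genes by -0.10 in Cilk1-/-, 0.21 in the compound mutant and 0.31 between the mutants. It changed the sign of Wnt7b (-0.00784) and Wnt10a (-0.0275) in Cilk1-/-, of Wnt6 (0.17) in the compound mutant, and of Wnt3 (0.13), Wnt4 (0.25), Wnt7b (0.29) and Wnt10b (0.0875) between the mutants.

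Wild-type and Cilk1-/- libraries share replicate numbers, whose deviations ran opposite ways, and no label says that a number marks a litter or a batch. With the replicate number as a block 0 ligands were called in any comparison. Wnt3 in the compound mutant then had an adjusted p of 0.211, and Wnt11 between the mutants 0.306. With the block, 1 inhibitor was called in the compound mutant against wild type and 0 between the mutants. With pair 4 and the compound mutant as 1 block, with a term for the label set, and with only the 2 genotypes compared, 0 inhibitors were called in both comparisons. The cause was not tested. Against wild type, the inhibitors called in Cilk1-/- numbered 2 with only the 2 genotypes compared, with epithelial centring and with compound mutant library 2 as the single one, and 1 with a minimum mean of 1 or label set 1 alone. The compound mutant had 2 of them with epithelial centring and 1 with library 2 as the single one. Over left-out libraries the inhibitor count ran from 0 to 2 in Cilk1-/-, from 1 to 5 in the compound mutant and from 1 to 5 between the mutants.

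Fits of fewer libraries, chosen after seeing the data, changed further signs. Label set 1 alone gave -0.0200 for Wnt7b and -0.11 for Wnt10a in Cilk1-/-. For Wnt11, whose sign did not change, that fit gave -0.34 in Cilk1-/- with an adjusted p of 0.0360, under 1.5-fold and so not a call. With compound mutant library 2 as the single one, whose spread is then taken from the other genotypes, the values against wild type were -0.11 for Wnt4, -0.30 for Wnt5a, -0.24 for Wnt7b and -0.22 for Wnt11, and those against Cilk1-/- were 0.0491 for Wnt3, -0.44 for Wnt5a and -0.0392 for Wnt10a. Leaving out 1 library at a time changed signs as follows. In Cilk1-/- the range was -0.13 to 0.0324 for Wnt6 and -0.0218 to 0.23 for Wnt10a. For the compound mutant against wild type it was -0.12 to 0.19 for Wnt4, -0.34 to 0.28 for Wnt6, -0.0482 to 0.24 for Wnt7b, -0.30 to 0.51 for Wnt10a, -0.28 to 0.43 for Wnt10b and -0.00712 to 0.37 for Wnt11. Between the mutants it was -0.27 to 0.0346 for Wnt4, -0.12 to 0.33 for Wnt5a, -0.28 to 0.34 for Wnt6, -0.14 to 0.14 for Wnt7b, -0.38 to 0.43 for Wnt10a and -0.58 to 0.13 for Wnt10b. Most of these ends came from leaving out compound mutant library 1, 2 or 3. The sign of Wnt3 against wild type and of Wnt11 between the mutants was the same in every fit with a library left out. Without counts, the limit that depth sets on Wnt3 and other low genes is unknown.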
